A study of Camellia sinensis with 12 samples.

Results

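The genes described here are the tea genes whose description in the deposited table contains the words ribosomal protein and names no organelle. Descriptions holding plastid, chloroplast, 30S, 50S, mitochondri, kinase or methyltransferase were passed over, as were long database summaries, and the counts of a gene had to sum to at least 120 over the 12 libraries. Of the 52332 genes of the table, 398 matched by name and 295 reached that count, and each of the 295 passed the filter on low counts and was tested. By the letter in the description, 148 belong to the large subunit (L), 106 to the small subunit (S) and 9 to the acidic stalk (P). A further 13 carry a name shared by both subunits (L7Ae/L30e/S12e/Gadd45) and 19 carry no letter that places them. Shoots of tea (Camellia sinensis, cultivar Longjing43) were plucked and withered at 25°C, and leaf RNA was sequenced after 0, 9, 15 and 24 h with 3 libraries per time. The sample labels give the light as 0 lux and the methods of the paper give another level, so the light is not certain. No group was kept unwithered, so withering, time since plucking and hour of the day cannot be told apart.

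The ribosome of the plant cytosol is built from a large and a small subunit, each an RNA core covered by proteins that are present in single copies. The exception is the stalk of the large subunit, where the acidic proteins P1 and P2, with the plant form P3, sit on the protein P0 and recruit the factors that drive elongation. In Arabidopsis each ribosomal protein is encoded by a small family of genes, and the mRNAs of many of them are regulated together with growth and energy supply, also through the TOR kinase. Plastids and mitochondria carry ribosomes of their own, of bacterial type, most of whose proteins are encoded in the nucleus.

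The libraries held 64931031 to 118261728 counts. The values below are CPM, counts scaled to a common library total, with TMM factors between libraries and no division by gene length, and a gene was called higher or lower at an adjusted p under 0.05. TMM factors ran from 1.21 to 1.24 at 0 h and from 0.758 to 0.793 at 24 h, so a share of all counts and a CPM move apart late in withering. Scaling by library size alone moved the median log2 fold change of all genes from -0.02 to -0.22 after 9 h, from -0.01 to -0.30 after 15 h and from -0.14 to -0.81 after 24 h, each against 0 h. The label of leaf tissue was matched by its markers, and the 25 mesophyll marker genes (rubisco small chains, light harvesting proteins and the like, 1 of them without counts) summed to 19443 to 27130 CPM at 0 h, 5817 to 7733 after 9 h, 5106 to 6312 after 15 h and 1765 to 2238 after 24 h. The 45 markers of dividing and bud cells, of which 8 had no counts, summed to 627 to 634 CPM at 0 h, 745 to 786 after 9 h, 687 to 708 after 15 h and 575 to 587 after 24 h. Much of that sum came from genes named KNOTTED1-like homeobox gene 3. The sums of the epidermis and guard cell markers went from 139 to 151 CPM down to 61.9 to 68.3 after 9 h. They were at 48.1 to 56.9 after 15 h and at 123 to 147 after 24 h. Those of vascular cells stood at 1007 to 1175, 958 to 1014, 1010 to 1153 and 1528 to 1838 CPM. In these bulk leaves, fewer cells of a type and less RNA per cell cannot be told apart, and the part of cell makeup in the results below was not tested.

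The label cytosolic rests on words that are missing from the descriptions. Judged by name, 256 of the 295 are ribosomal proteins outside the other classes, 22 carry a name usual for organellar or bacterial ribosomes (PSRP-3/Ycf65, the L12 forms, L9/RNase H1, L20, L21, L33, S1, and the S21 and L19 families without the letter e), and 17 are named for other proteins as well (elongation factors, S5 domain 2-like proteins and L25/Gln-tRNA synthetase). Several names in the first class, such as L3, L4, L9, L13, L15, S17, L2 or S7p/S5e, are also those of organelle proteins in Arabidopsis. These names were sorted after the descriptions and the values had been seen. The set is therefore called ribosomal protein genes below, and its classes are given apart where they differ. No sequence of these genes was at hand, so none is shown.

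Ribosomal protein transcripts fell from 0 to 9 h, rose again to 15 h and fell once more by 24 h. Their share of the deposited counts was 3.06, 3.02 and 3.23% in the 3 libraries at 0 h and 1.86, 1.91 and 1.96% at 9 h. It was 2.44, 2.56 and 2.76% at 15 h and, in the last 3 libraries, 1.90, 1.72 and 1.81%. The libraries of 0 h lay above those of each later time and those of 15 h above those of 9 and 24 h, without overlap, whereas those of 9 and 24 h overlapped. The mean share was 3.10% ± 0.115 at 0 h, 1.91% ± 0.0496 after 9 h, 2.59% ± 0.164 after 15 h and 1.81% ± 0.0905 after 24 h (SD, n = 3). On the TMM scale the fall by 24 h was smaller, with a summed level of 24582 to 26764 CPM at 0 h, 17567 to 18417 after 9 h, 23802 to 28617 after 15 h and 21682 to 25070 after 24 h. There the libraries of 0, 15 and 24 h overlapped and only those of 9 h stood below all others.

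**Figure D1:**
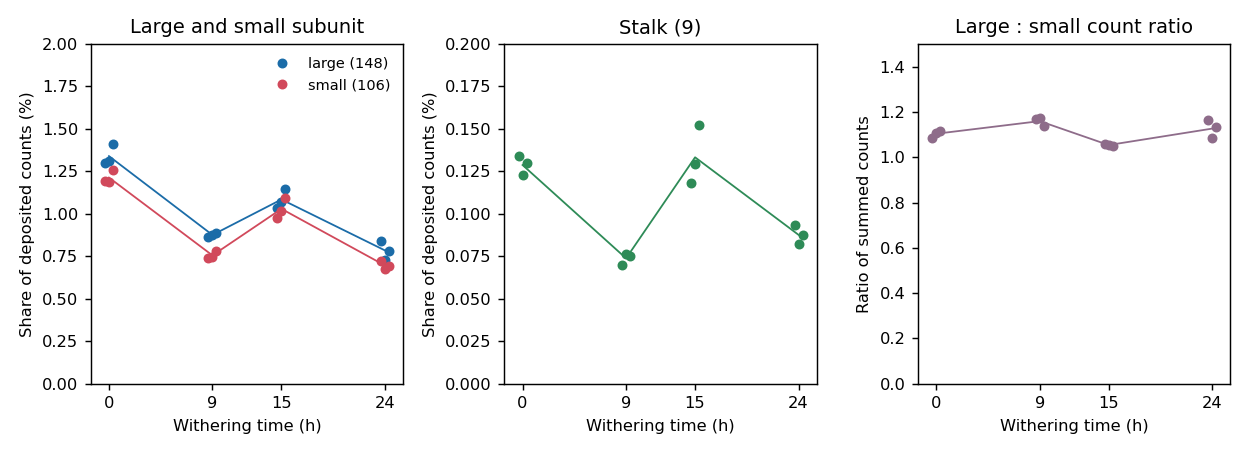
Share of the deposited counts (%) held by the large and small subunit genes (left) and by the stalk genes (middle), and the ratio of large to small subunit counts (right), against withering time in h. Points are libraries (3 per time) and lines join the means. Shares are lowest at 9 and 24 h, and the ratio stays between 1.05 and 1.17.

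By share of counts, both subunits followed this course. Large subunit genes took 1.34% ± 0.0601 of the counts at 0 h, 0.876% ± 0.0129 after 9 h, 1.08% ± 0.0588 after 15 h and 0.785% ± 0.0545 after 24 h (SD, n = 3). Small subunit genes took 1.21% ± 0.0408, 0.756% ± 0.0221, 1.03% ± 0.0583 and 0.696% ± 0.024 at the same times. On the TMM scale the last step differed. Large subunit genes summed to 9214 to 11077 CPM at 24 h, which overlapped 0 h (10434 to 11664) and 15 h (10083 to 11894). Small subunit genes summed to 8507 to 9524 CPM at 24 h, below 0 h (9616 to 10437) and just below 15 h (9536 to 11310). The ratio of large to small subunit counts within a library was 1.09, 1.11 and 1.12 at 0 h, 1.17, 1.17 and 1.14 after 9 h, 1.06, 1.05 and 1.05 after 15 h, and 1.16, 1.08 and 1.13 after 24 h. It was lowest in the 3 libraries of 15 h and highest at 9 h, and the 24 h libraries overlapped those of 0 and 9 h. A ratio within a library is free of scaling between libraries, and its level depends on gene length and on which genes carry the letters.

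At 9 h against 0 h the fall was broad and reached every class. Of the 295 genes, 188 were lower and 5 higher, where 26.8% of all 26712 genes tested were lower and 27.1% higher (edgeR's quasi-likelihood test with Benjamini-Hochberg adjustment). The share lower among the ribosomal protein genes was above that background and the share higher below it. Their median log2 fold change was -0.51, against -0.02 over all genes tested. By subunit, 86 of 148 large subunit genes were lower (median -0.47), 69 of 106 small subunit genes (median -0.45) and 5 of 9 stalk genes (median -0.56). The 5 that were higher all had large subunit names, L34e superfamily or L18ae family, and no small subunit or stalk gene was called higher. Whether these 5 encode core proteins of the ribosome is not given. Of the 13 genes of the shared L7Ae/L30e/S12e/Gadd45 name 10 were lower (median -0.69), as were 18 of the 19 without a placing letter (median -1.02). By mean level, 54 of the 81 genes with a mean over 100 CPM, 107 of 155 between 10 and 100 CPM and 27 of 59 under 10 CPM were lower. By library size alone 230 were lower and 5 higher, where 34.5% of all genes were lower and 21.1% higher. Over the same step the summed CPM of the epidermis markers fell, with 5 of 12 tested called lower and 4 higher (median 0.70). The sum of the dividing cell markers rose, with 6 of 32 lower and 8 higher (median -0.10). Its genes of highest mean CPM, both named KNOTTED1-like homeobox gene 3, went apart. MSTRG.148 rose from a mean of 102 to 254 CPM and MSTRG.25798 fell from 191 to 138. The mean sum went from 631 to 759 CPM, so its rise leaned on MSTRG.148. The sum of the mesophyll markers fell, with 18 of 24 lower and 2 higher (median -2.05). The part of these markers in the result was not tested.

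**Figure D2:**
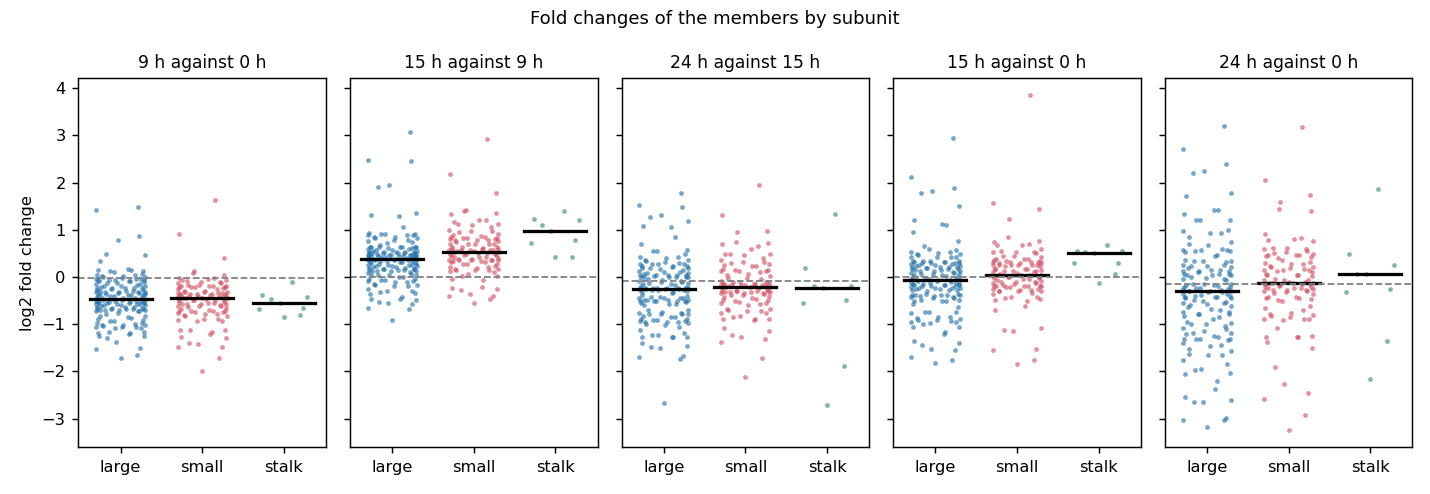
Log2 fold changes of the large (148), small (106) and stalk (9) genes in 5 comparisons of withering times. Each point is a gene, black bars are group medians, and the dashed line is the median of all 26712 genes tested. At 9 h against 0 h all 3 group medians lie below the line, at -0.47, -0.45 and -0.56.

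The lowest fold changes at 9 h among genes of at least 10 CPM fell on S7e, S21e, large subunit 27 and L10 family genes. MSTRG.28779, a small subunit S7e gene (Scaffold3595, 1820111 to 1821775, minus strand), stood at 30.5, 28.7 and 34.4 CPM at 0 h and at 7.62, 7.55 and 8.36 at 9 h. It remained low, at 8.11 to 9.46 CPM after 15 h and 7.74 to 9.51 after 24 h, with log2 fold changes against 0 h of -1.99 (SE 0.12) after 9 h and -1.90 (SE 0.12) after 24 h. MSTRG.41158, an S21e gene (Scaffold6029, 80591 to 83667, plus strand), fell from 55.1, 45.2 and 53.6 CPM to 16.1, 16.5 and 14.5 (log2 fold change -1.71, SE 0.13, adjusted p = 1.66e-07, edgeR). Unlike S7e it came back to 35.4, 41.2 and 49.4 CPM at 15 h, a rise of 1.42 (SE 0.13), and its 0 and 15 h libraries overlapped. MSTRG.12265, called ribosomal protein large subunit 27, a wording used for a plastid protein in Arabidopsis (Scaffold1845, 2059909 to 2064502, plus strand), fell from 307, 277 and 341 CPM to 88.8, 95.0 and 110, with no overlap (log2 fold change -1.65, SE 0.13). It was still at 98.8 to 134 CPM at 15 h and 130 to 166 at 24 h. An L10 family gene, MSTRG.30962, fell from 47.2, 53.8 and 56.8 CPM to 16.5, 17.8 and 20.4 (log2 fold change -1.53, SE 0.12).

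The zinc-binding ribosomal protein family moved as 1 group. In Arabidopsis this wording covers small proteins that hold a zinc ion, in both subunits, L37 and L37a among them, and the tea table gives no letter. Over all genes tested, 26.8% were lower at 9 h than at 0 h and 19.8% higher at 15 h than at 9 h. All 10 zinc-binding genes were lower at 9 h than at 0 h, with log2 fold changes from -1.28 to -0.71. All 10 were higher at 15 h than after 9 h, from 0.64 to 1.59. These counts were the same in each of the 12 fits that left out 1 library, and both comparisons share the 9 h libraries. The gene with the largest return, MSTRG.40468 (Scaffold583, 358829 to 359929, minus strand), stood at 113, 64.9 and 71.4 CPM at 0 h, 46.8, 38.2 and 38.6 after 9 h, 117, 142 and 113 after 15 h and 163, 118 and 158 after 24 h. Its 9 h libraries lay below all others and its 24 h libraries above those of 0 h. The rise from 9 to 15 h was 1.59 on the log2 scale (SE 0.20, adjusted p = 3.14e-05, edgeR). MSTRG.45832 of the same name rose by 1.44 (SE 0.29) from 8.46 to 11.1 CPM at 9 h to 18.4 to 35.8 CPM at 15 h, where the 0 h libraries stood at 13.8 to 29.5 CPM. Against 0 h, 2 of the genes were lower and 3 higher at 24 h, but 8 were lower and none higher by library size alone. The background at 24 h was 39.1% lower and 34.7% higher, or 55.4 and 21.8% by library size alone.

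Between 9 and 15 h the ribosomal protein genes rose. Of the 295, 159 rose and 16 fell, where 19.8% of all genes tested were higher and 18.1% lower. The median log2 fold change was 0.45, against 0.01 over all genes. Large subunit genes were higher in 67 cases of 148 (median 0.37), small subunit genes in 65 of 106 (median 0.53) and stalk genes in 7 of 9 (median 0.98). By mean level, 67 of the 81 over 100 CPM were higher and none was lower, against 80 higher and 15 lower of the 155 between 10 and 100 CPM. Genes with an organelle-type name did not share it, with 3 higher and 3 lower of 22 (median 0.08). The difference between these classes was not tested. Without replicate 3 of 15 h, 119 of the 295 were called higher, the lowest count over the fits that left out 1 library, and without replicate 1 or 2 of 15 h 10 were called lower. Scaling by library size gave 139 higher and 21 lower, where 16.2% of all genes were higher and 21.6% lower.

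Set against 0 h, the ribosomal protein genes at 15 h were mixed. They were lower in 62 cases and higher in 64, where 29% of all genes were lower and 30.3% higher, and their median was -0.03. The numbers of calls are below the background in both directions. By library size alone the split was 137 lower and 20 higher, where 38.9% of all genes were lower and 21.5% higher, and the median was -0.33 against -0.30 over all genes. The count of higher genes leaned on replicate 3 of 15 h, without which it was 40. By mean level, of the 81 over 100 CPM 30 were higher and 2 lower (24 lower and 5 higher by library size alone), whereas of the 155 between 10 and 100 CPM 28 were higher and 50 lower.

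The acidic stalk proteins showed the largest median rise of the 3 groups from 9 to 15 h. P1, P2 and P3 are the small acidic proteins that bind elongation factors, and 9 genes of the table carry the name 60S acidic ribosomal protein family. The one with the highest mean CPM, MSTRG.9211 (Scaffold1626, 3548721 to 3553915, minus strand), stood at 441, 359 and 425 CPM at 0 h, 209, 248 and 246 after 9 h, 431, 482 and 600 after 15 h and 414, 427 and 443 after 24 h. Only the 9 h libraries stood apart, below all others, with log2 fold changes of -0.80 at 9 h against 0 h (SE 0.12, adjusted p = 8.63e-05, edgeR) and 1.11 at 15 h against 9 h (SE 0.12, adjusted p = 1.18e-05). MSTRG.40994 (Scaffold60, 331499 to 333993, minus strand) went the same way, at 282, 253 and 251 CPM, then 154, 170 and 166, then 325, 366 and 459, and at last 302, 241 and 274. It exceeded its 0 h level at 15 h in all 3 libraries (log2 fold change 0.55, SE 0.12), and its libraries of 0 and 24 h overlapped. By library size alone that rise was 0.25 and was not called.

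Not all stalk genes dipped. MSTRG.32703 (Scaffold4118, 221618 to 222031, plus strand) held 78.7, 86.7 and 85.8 CPM at 0 h and 77.1, 78.1 and 78.8 after 9 h, which overlap, and then rose to 114, 130 and 160 after 15 h and 133, 102 and 118 after 24 h. Its log2 fold change was -0.10 (SE 0.12) after 9 h and 0.49 (SE 0.12, adjusted p = 2.17e-03, edgeR) at 24 h against 0 h, but -0.18 after 24 h by library size alone. MSTRG.35161 (Scaffold447, 492754 to 494610, plus strand) had a course of its own. It was low at 11.5, 8.62 and 10.2 CPM at 0 h and 7.09, 7.45 and 7.39 after 9 h, reached 13.8, 12.7 and 16.7 after 15 h, and climbed to 39.1, 31.3 and 39.2 after 24 h. The 24 h libraries lay above all others, with log2 fold changes of 1.86 against 0 h (SE 0.14, adjusted p = 5.61e-08, edgeR) and 1.34 against 15 h (SE 0.14, adjusted p = 3.14e-06).

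The other stalk genes varied less or could not be read. MSTRG.41406 stood at 120, 137 and 145 CPM at 0 h, 102 to 104 after 9 h and 135 to 187 after 24 h, and its fall by 9 h (log2 fold change -0.38) lost its call without replicate 2 or 3 of 0 h or any library of 9 h. MSTRG.5392 stood at 76.7, 78.5 and 109 CPM at 0 h and 57.8 to 62.8 after 9 h (log2 fold change -0.56), which was not called without replicate 3 of 0 h. For MSTRG.23628 the libraries of 0 and 9 h overlapped and the call was a rise from 44.9 to 50.7 CPM after 9 h to 64.0 to 89.0 CPM after 15 h (log2 fold change 0.71), lost without replicate 3 of either time. MSTRG.43942 and MSTRG.44069 stayed under 7 CPM and passed no comparison, and MSTRG.43942 jumped within times, from 0.14 to 4.38 CPM at 0 h and from 0.414 to 6.27 at 15 h. At 9 h against 0 h, 5 of the 9 were lower, and 4 without replicate 1 of 0 h, where MSTRG.35161 lost its call. At 15 h against 9 h, 7 were higher, and 4 without replicate 3 of 15 h. At 24 h against 0 h, 2 were higher and none lower, but 5 were lower and 1 higher by library size alone. Among all genes tested, 26.8% were lower at 9 h and 19.8% higher from 9 to 15 h. At 24 h against 0 h, 34.7% were higher and 39.1% lower, or 21.8 and 55.4% by library size alone. Within libraries the ratio of stalk to large subunit counts, which no scaling touches, was 0.103, 0.0934 and 0.0921 at 0 h, 0.0810, 0.0873 and 0.0845 after 9 h, 0.115, 0.120 and 0.133 after 15 h and 0.111, 0.112 and 0.112 after 24 h. Each library of 15 and 24 h lay above each of 0 and 9 h.

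**Figure D3:**
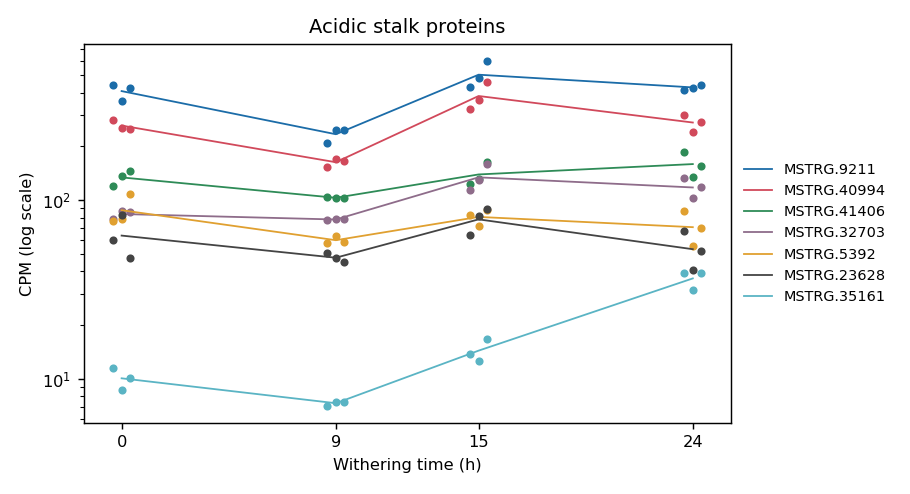
CPM (log axis) of the 7 acidic stalk genes above 7 CPM, against withering time in h, with 3 libraries per time as points and lines through the means. Most are lowest at 9 h, and MSTRG.35161 climbs to 31.3 to 39.2 CPM at 24 h.

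The protein on which the stalk is built is P0, which the Arabidopsis annotation calls an L10 family protein, a wording that also covers a plastid L10. In tea this wording fell on 3 genes that went apart. MSTRG.13504 (Scaffold1951, 307314 to 313502, plus strand), among the 4 large subunit genes of highest mean CPM, held 300, 334 and 337 CPM at 0 h, 325, 313 and 292 after 9 h, 377, 384 and 427 after 15 h and 327, 250 and 305 after 24 h. It did not dip at 9 h (log2 fold change -0.06, SE 0.10) and its 0, 9 and 24 h libraries overlapped. MSTRG.39898 (Scaffold5689, 664611 to 665315, minus strand) instead went down from 71.3, 84.9 and 80.5 CPM to 38.9, 38.7 and 35.6, then 31.7, 35.7 and 38.2, and 20.7, 17.2 and 19.1 (log2 fold change -2.05 by 24 h, SE 0.10, adjusted p = 9.70e-10, edgeR). MSTRG.30962, described above for its fall by 9 h, was at 27.8 to 30.6 CPM at 15 h and 17.6 to 22.3 at 24 h.

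Of the comparisons with 0 h, the set spread widest at 24 h, with quartiles of the log2 fold change at -0.81 and 0.23. All genes tested also spread widest there, with quartiles further apart, at -1.46 and 1.01. Of the 295 genes, 120 were lower and 59 higher, where 39.1% of all genes tested were lower and 34.7% higher, so the share lower is near the background and the share higher below it. The median was -0.22, against -0.14 over all genes. By library size alone 227 were lower and 13 higher, where 55.4% of all genes were lower and 21.8% higher, with a median of -0.89 against -0.81 over all genes. Under that scaling the share lower is above the background. Large subunit genes were lower in 70 cases and higher in 32 (median -0.30), and small subunit genes lower in 35 and higher in 22 (median -0.12). With the size factors of DESeq2 in the same fit, the small subunit split was 29 lower and 29 higher. The last step alone, 24 h against 15 h, gave 114 lower and 34 higher, where 30.8% of all genes were lower and 25.9% higher, with a median of -0.23 against -0.08. There 59 large and 43 small subunit genes were lower, 19 and 11 were higher, and the split by library size alone was 199 lower and 13 higher of the 295, where 45.9% of all genes were lower and 15.5% higher. Asking for a fold of at least 2 as well left 49 of the 295 lower and 2 higher at 9 h against 0 h (13.4 and 13.1% of all genes), 22 and 10 at 15 h (17 and 15%), and 54 and 18 at 24 h (28.8 and 22.9%). From 9 to 15 h it left 0 lower and 31 higher (7.58 and 6.23%), and from 15 to 24 h 21 lower and 9 higher (16.2 and 11.9%). Counted by the time of the lowest mean, 170 of the 295 genes were lowest after 9 h, 92 after 24 h, 21 at 0 h and 12 after 15 h. Among small subunit genes 71 of 106 were lowest at 9 h and 29 at 24 h, among large subunit genes 69 and 54 of 148. These counts rest on TMM-scaled CPM and were not made over all genes or by library size alone.

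Among the genes with the largest falls by 24 h, several fell at each of the 3 steps. MSTRG.33094, an S10p/S20e family gene of the small subunit (Scaffold4160, 1528820 to 1532735, minus strand), went from 117, 145 and 133 CPM at 0 h to 62.5, 58.7 and 61.2 after 9 h, 44.3, 44.0 and 49.4 after 15 h and 17.8, 11.7 and 12.1 after 24 h. No 2 times overlapped, and its log2 fold change of -3.24 by 24 h (SE 0.15, adjusted p = 4.16e-10, edgeR) was the lowest of the 295. MSTRG.38217, an L3 family gene (Scaffold520, 274705 to 281177, plus strand), fell from 130, 140 and 137 CPM to 62.7, 60.8 and 52.7, to 35.8, 39.4 and 45.3, and to 17.9, 14.9 and 16.8 (log2 fold change -3.04, SE 0.11, adjusted p = 4.48e-11). L3 lies near the centre where peptide bonds are formed. MSTRG.12478, named L9 (Scaffold1857, 1337681 to 1342672, plus strand), fell from 99.2, 103 and 133 CPM at 0 h to 13.5, 12.2 and 15.3 at 24 h (log2 fold change -3.03, SE 0.13). MSTRG.35807, named L15 (Scaffold4608, 332040 to 338217, plus strand), fell from 157, 180 and 175 to 26.5, 17.5 and 20.7 (log2 fold change -2.98, SE 0.14). In both, the libraries of 9 and 15 h lay between, without overlap.

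Further genes with falls of this size followed. An L13 family gene, MSTRG.1427, fell by 2.65 on the log2 scale by 24 h (SE 0.18), from 97.2 to 121 CPM at 0 h to 13.1 to 23.2 CPM at 24 h. A short S17 gene, MSTRG.1902 (Scaffold1105, 477917 to 478216, minus strand), fell by 2.59 (SE 0.18), from 58.4 to 70.7 CPM to 7.55 to 13.9. Both were also lower at 15 h than at 9 h, with log2 fold changes of -0.68 (SE 0.17) and -0.56 (SE 0.17). That step was small in this group, and its call was lost for MSTRG.1902 without replicate 2 of 9 h or replicate 1 or 2 of 15 h, for MSTRG.33094 and MSTRG.28794 without any 9 h library or replicate 1 or 2 of 15 h, and for MSTRG.35807 in 8 of the 12 fits that left out 1 library. MSTRG.28794, named PSRP-3/Ycf65 after a plastid protein, fell from 57.9, 74.1 and 61.4 CPM to 10.8, 7.31 and 8.36 at 24 h (log2 fold change -2.87, SE 0.17), and it overlaps a gene on the opposite strand with which it may share reads. The one with the most counts, MSTRG.42848, named S1 (Scaffold655, 1198646 to 1204472, plus strand) and singled out after its values were seen, fell from 469, 480 and 489 CPM to 166, 175 and 176 at 9 h, kept 155, 164 and 177 at 15 h and ended at 73.1, 59.0 and 58.2 (log2 fold change -2.92, SE 0.10).

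As a class, the 22 genes with organelle-type names were lower in 16 cases and higher in 3 at 24 h against 0 h (median -0.93), and they were lower in 14 and higher in none at 9 h (median -0.58). The class was sorted after the values were seen and does not hold the 4 S7p/S5e genes described below, all higher at 24 h, and with these it had 16 lower and 7 higher of 26 (median -0.77). The 256 others with ribosomal names were lower in 97 and higher in 56 at 24 h (median -0.16). Of all genes tested, 39.1% were lower and 34.7% higher at 24 h, and 26.8 and 27.1% at 9 h. The share of the 256 that was lower at 24 h, 37.9%, is near that background. The 256 also hold the L3, L9, L13, L15 and S17 names with large falls above, which organelle proteins in Arabidopsis carry too. Within libraries the counts of the 22 were 0.0545, 0.0515 and 0.0564 of those of the 256 at 0 h, 0.0476, 0.0380 and 0.0403 after 9 h, 0.0280, 0.0304 and 0.0271 after 15 h and 0.0227, 0.0194 and 0.0189 after 24 h. This ratio fell from each time to the next without overlap. It leaned on the S1 gene MSTRG.42848 described above, which is 1 of the 22. Together the 22 summed to 1138 to 1349 CPM at 0 h and 613 to 737 at 9 h. The ratio without that gene was not computed, so its fall is not shown for the rest of the class. The genes whose descriptions do name plastids, mitochondria, 30S or 50S, which stand outside the set, were lower in 11 cases and higher in 1 of 15 tested at 9 h and lower in 13 and higher in 2 at 24 h (median -1.36). The mesophyll markers given above fell over the same times, and their part in the fall of these genes was not tested.

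**Figure D4:**
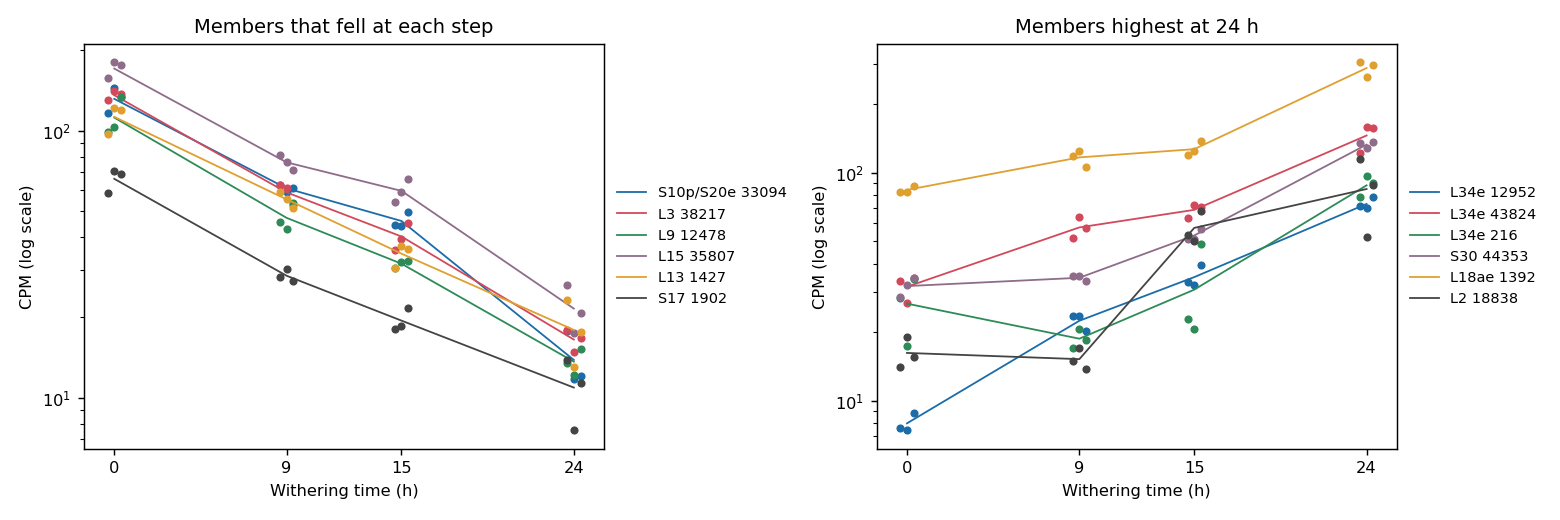
CPM (log axis) against withering time in h for 6 ribosomal protein genes that fell at each step (left) and 6 that were highest at 24 h (right), with 3 libraries per time as points and lines through the means. The S10p/S20e gene ends at 11.7 to 17.8 CPM, and the L34e gene MSTRG.12952 climbs from 7.43 to 8.86 CPM at 0 h to 69.9 to 77.9 CPM at 24 h.

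Other genes with large subunit names rose. MSTRG.12952, an L34e superfamily gene (Scaffold190, 708205 to 714510, plus strand), went from 7.65, 7.43 and 8.86 CPM at 0 h to 23.6, 23.5 and 20.2 after 9 h, 33.1, 32.2 and 39.3 after 15 h and 71.2, 69.9 and 77.9 after 24 h. No 2 times overlapped, and the log2 fold change was 1.49 at 9 h (SE 0.11) and 3.19 at 24 h (SE 0.12, adjusted p = 4.02e-11, edgeR). MSTRG.43824 of the same name (Scaffold679, 357951 to 358613, plus strand) rose from 33.6, 26.8 and 34.5 CPM to 51.6, 64.1 and 57.1 at 9 h and 122, 158 and 157 at 24 h (log2 fold change 2.20, SE 0.13). MSTRG.216, also L34e, kept to 17.4 to 34.4 CPM at 0 h and 17.1 to 20.7 after 9 h, spread from 20.6 to 48.7 after 15 h and reached 77.9 to 96.4 after 24 h (log2 fold change 1.72 against 0 h, SE 0.30). Scaled by library size these 3 were still higher, by 2.53, 1.54 and 1.06. L34 names covered 12 genes in all. At 24 h against 0 h, 39.1% of all genes tested were lower and 34.7% higher (55.4 and 21.8% by library size alone). Of the 12, 4 were lower and 5 higher (7 lower and 3 higher by library size alone), which is near those shares. Among the lower was MSTRG.35097, named plain L34, which fell from 101 ± 8.93 to 25.9 ± 2.13 CPM (mean and SD, n = 3; log2 fold change -1.96, SE 0.14).

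The L18a names split by wording. Of the 7 genes called L18ae family, 6 were higher and none lower at 24 h against 0 h, whereas the 2 called L18ae/LX family passed in neither direction, with log2 fold changes of 0.07 and -0.04. The L18a names together gave, by library size alone, 3 higher and 3 lower. MSTRG.1392 (Scaffold10799, 366668 to 369597, minus strand) rose from 82.5, 82.7 and 87.1 CPM at 0 h to 119, 125 and 106 after 9 h, 119, 124 and 137 after 15 h and 304, 262 and 296 after 24 h. The step from 15 to 24 h was the larger one, 1.18 on the log2 scale (SE 0.09), and the total reached 1.77 (SE 0.09, adjusted p = 8.47e-10, edgeR). MSTRG.4046 rose early instead, from 31.1 to 39.7 CPM at 0 h to 50.3 to 65.4 after 9 h, and stayed at 47.7 to 73.5 after 24 h (log2 fold change 0.75, SE 0.15, or 0.08 and not called by library size alone). Together with MSTRG.12952, MSTRG.43824 and 1 low L18ae gene at 1.4 CPM, these make up the 5 that were higher at 9 h. The table does not say whether these L18ae and L34e genes encode the core proteins of the ribosome.

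Further rises came late. MSTRG.44353, an S30 family gene (Scaffold70, 91107 to 94380, minus strand), was level at 28.7, 32.2 and 34.7 CPM at 0 h and 35.1, 35.1 and 33.7 after 9 h, rose to 51.0, 51.4 and 56.9 after 15 h and to 135, 128 and 136 after 24 h. Its log2 fold change of 2.06 (SE 0.08, adjusted p = 1.37e-10, edgeR) was the largest among small subunit genes of at least 10 CPM, and S30 is made in animals as a fusion to a ubiquitin-like protein. MSTRG.18838, named L2 (Scaffold2420, 1157174 to 1158668, plus strand), was at 14.1, 19 and 15.6 CPM at 0 h and 15.0, 17 and 13.7 after 9 h, then at 53.5, 50.4 and 68.0 after 15 h and 114, 52.3 and 88.0 after 24 h. The wording L2 is also that of a protein encoded in plastid DNA, and the 24 h libraries spread more than any of the earlier times. Its log2 fold change was 2.39 at 24 h (SE 0.24, adjusted p = 8.20e-07). A second L2 gene, MSTRG.40450, was higher at 15 h by 1.11 (SE 0.26), from 18.6 to 45.5 CPM at 0 h to 55.4 to 75.4 CPM. The 4 genes named S7p/S5e, a wording used in Arabidopsis for organelle S7 proteins, were all higher at 24 h, by 0.61 to 1.59, and 1 of them was called higher by library size alone. The background there was 34.7% higher, or 21.8% by library size alone.

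The L16p/L10e genes, both of high mean CPM, took different courses. MSTRG.22822, an L16p/L10e family gene (Scaffold2840, 24910 to 27814, minus strand), belongs to the L10 protein that in Arabidopsis is a partner of the receptor kinase NIK1 in antiviral defence. It went from 377, 401 and 443 CPM at 0 h to 302, 328 and 331 after 9 h, 531, 527 and 591 after 15 h and 491, 506 and 542 after 24 h (log2 fold changes against 0 h of -0.34, 0.43 and 0.33, each SE 0.08). Its 9 h libraries lay below and its 15 and 24 h libraries above those of 0 h, but by library size alone the 24 h value was -0.33. The second gene of that name, MSTRG.41187 (Scaffold6029, 892746 to 894190, plus strand), stood at 194, 198 and 220 CPM at 0 h, 213, 228 and 243 after 9 h, 171, 182 and 218 after 15 h and 490, 423 and 496 after 24 h. Only its 24 h libraries stood apart, with a log2 fold change of 1.20 against 0 h (SE 0.10, adjusted p = 1.85e-07, edgeR) and 1.3 against 15 h (SE 0.10). The ratio of counts of the first gene to the second, which no scaling touches, was 1.94, 2.02 and 2.02 at 0 h, 1.42, 1.44 and 1.36 after 9 h, 3.11, 2.89 and 2.72 after 15 h and 1.0, 1.20 and 1.09 after 24 h. The 4 times did not overlap in this ratio.

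**Figure D5:**
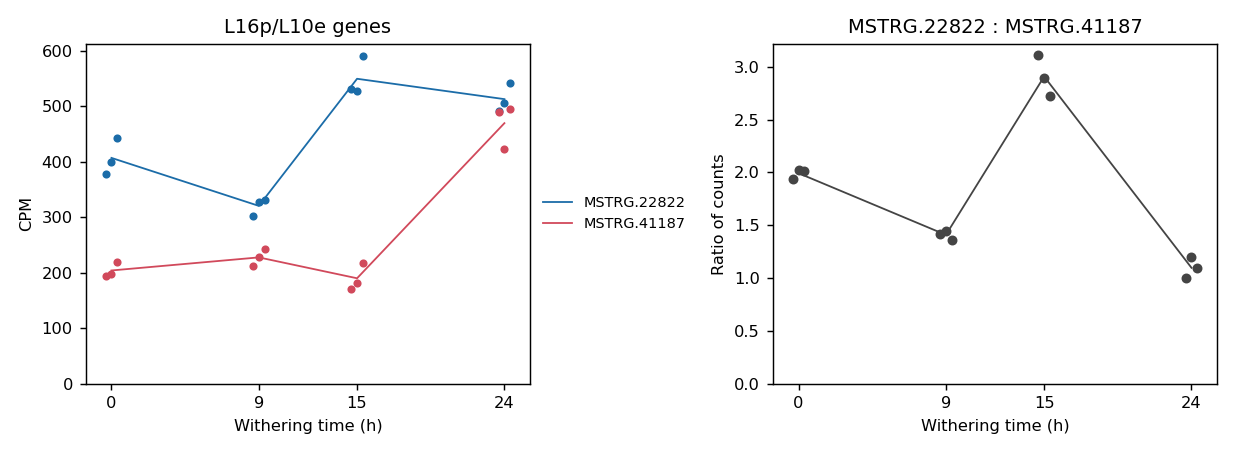
CPM of the L16p/L10e genes MSTRG.22822 and MSTRG.41187 (left) and the ratio of their counts within each library (right), against withering time in h. Points are libraries, 3 per time, and lines join the means. The ratio is near 2 at 0 h, 2.72 to 3.11 after 15 h and 1.0 to 1.20 after 24 h.

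Other genes of high mean CPM in both subunits were mostly lower at 9 h and higher again at 15 h. The L32e gene MSTRG.32323 went from 374, 334 and 386 CPM to 235, 249 and 267 after 9 h, 390, 442 and 516 after 15 h and 415, 458 and 482 after 24 h, all 9 h libraries being below the rest. For the L6 gene MSTRG.25724 the 9 h value was not called (log2 fold change -0.18, SE 0.11), and it ended lower than at 0 h (-0.43, SE 0.12). Of the small subunit, S19e gene MSTRG.38107 went from 282, 301 and 324 CPM to 257, 263 and 268 and then 356, 371 and 417, S5 gene MSTRG.50395 from 367 to 381 CPM to 305 to 323 and then 422 to 455, and S3Ae gene MSTRG.30547 from 304 to 380 CPM to 255 to 272 and then 304 to 332. Each rose from 9 to 15 h, by 0.54 (SE 0.08), 0.50 (SE 0.09) and 0.28 (SE 0.09) on the log2 scale. The fall by 9 h was smaller and lost its call in 8 of the 12 fits without 1 library for MSTRG.38107 (log2 fold change -0.20) and in 6, without any library of 0 or 9 h, for MSTRG.50395 (-0.25). The rise of MSTRG.30547 lost its call without replicate 1 or 2 of 9 h or replicate 3 of 15 h. The gene with the most reads among small subunit names, MSTRG.42403, is described as S5/elongation factor G and stood at 576 to 592 CPM at 0 h and 533 to 538 at 24 h.

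S6 is the small subunit protein that the TOR pathway phosphorylates through S6 kinase. Its plain genes are MSTRG.5031 and MSTRG.12117, both S6e. MSTRG.5031 (Scaffold1318, 127828 to 133211, minus strand) went from 232, 199 and 236 CPM at 0 h to 135, 145 and 158 after 9 h, 245, 255 and 291 after 15 h and 176, 229 and 218 after 24 h. Its 9 h libraries lay below those of 0 h (log2 fold change -0.60, SE 0.11) and the 24 h libraries within or below them. MSTRG.12117 went from 27.5, 41.3 and 30.4 CPM to 16.7, 17.5 and 19.4, then 33, 23.9 and 35.6, and 25.1, 18.7 and 14.0 (log2 fold change -0.78 at 24 h, SE 0.21). A further 5 genes carry S6 beside elongation factor EF1B in the name, and they spread. MSTRG.40057 fell from 87.7 to 97.8 CPM at 0 h to 17.7 to 22.9 at 24 h (log2 fold change -2.26, SE 0.11) and MSTRG.11627 from 66.1 to 67.5 CPM to 24.7 to 29.6 (log2 fold change -1.27, SE 0.09). MSTRG.14143 and MSTRG.29713 passed no test at 24 h against 0 h, with log2 fold changes of 0.22 (SE 0.10) and -0.04 (SE 0.10). MSTRG.34032 was near absent in 1 library of 3 at 0, 9 and 24 h, at 1.49, 0.788 and 0.503 CPM beside 14.8 to 29.2 in the others of those times. Of the 2 genes named target of rapamycin, which stand outside the set, MSTRG.33559 rose by 0.86 on the log2 scale at 9 h (SE 0.11, adjusted p = 1.59e-05, edgeR) and MSTRG.42224 passed no test there (0.17, SE 0.14) but was lower at 15 h (-0.44, SE 0.14) and at 24 h (-0.87, SE 0.14) than at 0 h. MSTRG.33559 was higher at 24 h (0.29, SE 0.11).

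Some families held genes that went opposite ways. Families here are genes whose names share the same letters and numbers, and 42 of them had at least 3 members. A family can therefore join different proteins, such as L19e with the L19 family or S21e with the S21 family. Background shares at 24 h against 0 h were 39.1% lower and 34.7% higher (55.4 and 21.8% by library size alone). With such shares, sets of 3 or more genes of any kind can hold calls in both directions. Of the 42 families, 17 had called genes in both directions at 24 h against 0 h, 18 only lower and 7 only higher, under the TMM scaling. Whether other sets of genes would give fewer was not tested. With scaling by library size 7 had calls in both directions, 34 only lower and 1 only higher. These are not counts of copies of 1 protein that went apart. In the L36e family MSTRG.8 rose by 0.69 (SE 0.10), or 0.02 and not called by library size alone, and MSTRG.38348 fell by 0.62 (SE 0.11). In the S11 family MSTRG.17920 rose by 0.60 (SE 0.07) and MSTRG.42710 fell by 0.28 (SE 0.09), but MSTRG.17920 was at -0.06 by library size alone. Among S4 genes MSTRG.10389 rose by 0.60 (SE 0.08), or -0.07 by library size alone. A short L31 gene, MSTRG.9308 (Scaffold1631, 1180637 to 1180843, plus strand), went down, up and down again, at 23.3, 19.6 and 23.4 CPM, 11.4, 12.7 and 11.8, 25.7, 27.7 and 35.9, and 9.70, 7.5 and 9.56. Its last step, -1.74 on the log2 scale (SE 0.15, adjusted p = 4.72e-07, edgeR), was the largest fall from 15 to 24 h among genes of at least 10 CPM. The L4/L1 gene MSTRG.40719 also fell late, from 83.1, 85.9 and 101 CPM at 15 h to 37.6, 29.8 and 34.8 at 24 h (log2 fold change -1.40, SE 0.10). MSTRG.4063, named L4, was lower at 15 h than at 9 h (log2 fold change -0.67, SE 0.15) and lies 379 bases from another L4 gene, so that reads may be split between them. Some genes of 1 name may be near copies, which was not checked as no sequence was at hand. How reads of near copies were assigned was not given by any source used.

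The rest of the translation machinery did not move as 1 block. Ribosome biogenesis genes, which include fibrillarin and NOP56, were lower in 12 cases and higher in 5 of 26 tested at 9 h, and lower in 17 and higher in 4 at 24 h against 0 h (medians -0.25 and -0.61). Cytosolic elongation factors outside the set were lower in 8 and higher in 3 of 18 at 9 h and lower in 13 and higher in 4 at 24 h (medians -0.07 and -0.78). Genes named EF1B/ribosomal protein S6 or S5/elongation factor G are not among these, as they are counted with the ribosomal protein genes. Aminoacyl-tRNA synthetases were lower in 21 and higher in 6 of 48, then lower in 35 and higher in 2 (medians -0.33 and -0.83). Initiation factors were lower in 7 and higher in 17 of 57 at 9 h and lower in 15 and higher in 28 at 24 h (medians 0.07 and 0.28), but by library size alone lower in 18 and higher in 12, then lower in 29 and higher in 15 (medians -0.13 and -0.39). From 9 to 15 h, where the ribosomal protein genes rose by a median of 0.45, the medians were 0.16 for biogenesis, 0.12 for elongation, -0.19 for the synthetases and 0.17 for initiation. These medians stand beside all-gene medians of -0.02 at 9 h, -0.14 at 24 h and 0.01 from 9 to 15 h. Background shares of calls were 26.8% down and 27.1% up by 9 h, then 39.1 and 34.7% by 24 h. With library size as the only scaling, biogenesis had 16 falls and 3 rises by 9 h, then 22 and 3 by 24 h. Elongation had 11 and 2, then 14 and 2, and the synthetases 30 and 1, then 43 and 1. Background shares under that scaling were 34.5 and 21.1%, then 55.4 and 21.8%. The lists were not tested against each other.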

How the data were processed

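The deposited data are raw counts per gene in a table with a column for each library, as the authors made them. Per the submitters' processing notes, the tools were StringTie 1.3.1, HISAT2 2.0.5, Trimmomatic and FastQC 0.10.1. Neither the build of the genome nor how strands were set and reads counted was given in the sources used here, and coordinates are those of the table. Columns were tied to samples by time and replicate number, since their prefix differs from the sample titles by a letter. Of the 295 genes, 292 carry an assembled identifier and 0 matched the RefSeq gene table at hand.

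Genes were tested with edgeR 4.0.16 (R 4.3.3; filterByExpr, TMM, glmQLFit and glmQLFTest, time as a factor, 12 libraries in 1 fit, two-sided), with Benjamini-Hochberg adjustment over 26712 genes. SE is the log2 fold change divided by the square root of F. DESeq2 1.42.0 was an alternative, and the fit was tested on simulated data. No source says if the 3 libraries of each time came from separate leaves, so p-values measure the spread between libraries, which may be technical. No pair of libraries agreed within sampling noise.

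Members, lists and tests were chosen with earlier results of these data known. The genes named are all stalk genes, the 4 large and 4 small subunit genes of highest mean CPM, per comparison up to 4 rises and 4 falls (called, mean of at least 10 CPM, no overlap of libraries), the families S6, L10, L40 and S27a, and in families called both ways at 24 h the largest rise and fall. Not every such gene is printed, no member was named L40 or S27a, and MSTRG.42848 is an exception. From the biogenesis list, UTP:sugar transferases that matched by letters were dropped. Letters in descriptions were taken literally, so EF1B/ribosomal protein S6 counts as small subunit.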

Additional observations from a re-analysis of the deposited data

How the results depend on the processing

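Directions depended most on scaling. By library size alone, 137 genes fell and 20 rose by 15 h, 227 fell and 13 rose by 24 h, and 199 fell and 13 rose from 15 to 24 h. Under that scaling the log2 fold changes of MSTRG.32703 (-0.18), MSTRG.22822 (-0.33), MSTRG.32323 (-0.36), MSTRG.10389 (-0.0695) and MSTRG.17920 (-0.0627) at 24 h and of MSTRG.13504 (-0.00215), MSTRG.42403 (-0.13) and MSTRG.50395 (-0.0473) at 15 h against 0 h turned sign, as did MSTRG.12265 (-0.00911) and MSTRG.17920 (-0.11) at 24 h against 15 h. Asking for a fold of at least 2, beside the shares of all genes given with these counts above, left 49 falls and 2 rises by 9 h, 22 and 10 by 15 h, 54 and 18 by 24 h, 0 and 31 from 9 to 15 h, and 21 and 9 from 15 to 24 h. Leaving out superfamily and domain names left 3 higher at 9 h.

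Leaving out 1 library moved the count higher at 15 h against 0 h between 40 and 71 and that lower at 15 h against 9 h between 10 (without replicate 1 or 2 of 15 h) and 21. The mean share of counts was 2.95, 2.92 and 2.83% at 0 h without organelle-type names, without names of other proteins and without the 5 genes with the most counts. At 9 h it was 1.83% without superfamily names and 1.84, 1.77 and 1.74% under those 3, and without the 5 genes it was 2.33% at 15 h and 1.62% at 24 h. The large to small ratio was 1.06 without superfamily names, 1.13 without organelle-type names and 1.28 without names of other proteins at 0 h. Without superfamily names and without names of other proteins it was 1.11 and 1.4 at 9 h, 1.01 and 1.22 at 15 h, and 1.05 and 1.28 after 24 h, and without the 5 genes 1.02 at 15 h and 1.08 after 24 h. The settings on organelle-type and other names, S7p/S5e and families by library size were added after the data were seen.

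No sign was seen that the replicate numbers pair the libraries. Over 18 pairs of libraries with the same number the correlation of their deviations ran from -0.08 to 0.06. Pairs with different numbers ran from -0.098 to 0.097. With 3 libraries per time this cannot exclude pairing. With the replicate number as a block, 184 fell and 6 rose by 9 h, 69 and 61 by 15 h and 116 and 63 by 24 h, 13 and 154 from 9 to 15 h and 112 and 34 from 15 to 24 h. Genes under 10 CPM, such as MSTRG.44069, were limited by few counts.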
